A study of Oncorhynchus mykiss with 6 samples.

Results

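The miR-30 family was followed in small RNA libraries of rainbow trout liver (Oncorhynchus mykiss; juvenile, wild-type fish, with the strain given as Walbaum). The study asked whether liver miRNAs respond to a short fast. There were 3 libraries from fish fasted for 4 days, numbered 3, 4 and 5, and 3 from control fish, numbered 3, 4 and 6. The labels do not tie each library to a fish of its own. A p-value here therefore measures only library-to-library spread, which may be technical. Members were all rows of the deposited table whose name holds miR-30 followed by no further digit, whatever the arm, length variant or fish prefix. This rule took 33 of the 1427 small RNA rows, 20 from the 5p arm and 13 from the 3p arm, and used no measured value.

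A miRNA is cut from a hairpin precursor, whose 5p and 3p arms can each be loaded into an Argonaute protein. The loaded strand finds target mRNAs mainly through its seed, bases 2 to 8, so members of a family that share a seed share many possible targets. In zebrafish the miR-30 family is known to be needed for bile duct formation in the liver. In mice, miR-30c is known to act on the transcript of microsomal triglyceride transfer protein, which loads lipid onto secreted lipoproteins, and in human cells miR-30a is known to act on that of the autophagy protein Beclin 1.

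The family in trout liver came down to 4 sequences of the 5p arm, which with their length variants held all but a small part of the counts. The 4 most abundant rows held 96.8% of the summed counts of all 33. They are shown 5′ to 3′ as DNA letters, as deposited, with the seed in capitals, because all 4 carry the same seed and differ only behind it.
dre-miR-30e-5p_R-2: tGTAAACAtccttgactgga
ssa-miR-30b-5p_R-4: tGTAAACAtccccgactgga
ssa-miR-30a-5p: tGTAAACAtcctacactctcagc
ssa-miR-30e-5p: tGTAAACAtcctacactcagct

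The 4 sequences were identical over their first 11 bases, TGTAAACATCC. Counted from the 5′ end, ssa-miR-30b-5p_R-4 differed from dre-miR-30e-5p_R-2 at 2 of the first 20 bases, T12C and T13C. The rows ssa-miR-30a-5p and ssa-miR-30e-5p differed from each other at 2 of the first 20, T19A and C20G, and each differed from dre-miR-30e-5p_R-2 at 5. The sequences thus formed a pair ending in gactgga and a pair with cctacactc in the middle. The prefixes dre and ssa stand for zebrafish and Atlantic salmon, and suffixes such as R-2 or L+1 are kept as in the file.

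Letters did not identify a sequence across fish. When rows were grouped by their bases from the seed to base 19, each of the 4 sequences carried 2 letters. The sequence of ssa-miR-30e-5p was found, with extra bases at its start, in rows named miR-30b with zebrafish, carp (ccr) and pufferfish (fru) prefixes. That of ssa-miR-30a-5p was named miR-30c under the zebrafish prefix, that of ssa-miR-30b-5p_R-4 was named miR-30d, and that of dre-miR-30e-5p_R-2 was named miR-30c under the salmon prefix. Rows are therefore given by their full names below, and ssa-miR-30e-5p is not the salmon form of dre-miR-30e-5p_R-2.

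The most abundant 3p row and the longest of the tested 5p rows are shown with bases 2 to 8 in capitals, together with the 3p row that pairs by name with ssa-miR-30b-5p_R-4 and 2 rows that begin 1 base earlier. In the last 2 the extra first base moves the seed window, and the capitals show the shifted window.
dre-miR-30e-3p: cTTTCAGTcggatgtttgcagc
ssa-miR-30b-3p_L-1: tTTCAGTAgggtgtttgctgc
ssa-miR-30c-5p_R+1_1ss24TC: tGTAAACAtccttgactggaagcct
dre-miR-30d_L+1R-2: cTGTAAACatccccgactgga
dre-miR-30c-5p_L+1R+1: cTGTAAACatcctacactctcagc

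Of the 20 5p rows, 8 had GTAAACA at bases 2 to 8 and 12 had 1 to 4 extra bases in front. No row of the table outside the family had GTAAACA at bases 2 to 8. Almost every 5p count began at the usual base: over all libraries, 99.95% of the 5p counts lay in rows without extra bases at the start.

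The table's counts came to between 737686 and 1432592 in fasted and between 982844 and 4203708 in control libraries. They were expected counts, in which a read that matches several sequences appears to be divided between them, since 14.4 to 20.8% of the values in a library were not whole numbers. Small RNAs are read whole, so counts need no division by length. Rows that share sequence therefore have uncertain single values. In fasted replicate 3 the table held 15.1% of the mappable reads, the smallest share, against 34.9 and 47.8% in fasted replicates 5 and 4 and 45.0 to 61.0% in control libraries. Marker miRNAs of hepatocytes (miR-122, miR-192 and miR-194) took 37.5 to 44.2% of the counts in fasted and 36.6 to 41.8% in control liver, so the defining markers of the labelled tissue were present. The summed shares were 0.114 to 0.898% in fasted and 0.172 to 0.358% in control liver for erythrocyte markers, 0.0714 to 0.280% and 0.0825 to 0.179% for leucocyte markers, 5.67 to 6.64% and 5.17 to 6.89% for stromal and endothelial markers, and 0.00087 to 0.0167% and 0.00106 to 0.00450% for muscle markers. Pancreas markers took 0.0157 to 0.0286% in fasted and 0.00941 to 0.0118% in control liver, the only marker list of the 6 whose groups did not overlap. Among single rows with enough counts to test, 24.6% of 309 had shares that were higher in every fasted than in every control library. The part of the marked cell types in the values below was not tested. In whole liver a change in the share of a cell type cannot be told apart from a change within cells.

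Taken as a share of the table, the family was higher in every fasted library than in any control library, but this order was not kept on other scales. The same order was found for the shares of 24.6% of the 309 tested rows. Relative to library totals, those 309 rows had a median log2 fold change of 0.59. A higher share in fasted liver was therefore not particular to the family. Its 33 rows held 7.77, 7.57 and 6.71% of the table's counts in fasted replicates 3, 4 and 5, against 6.07, 5.59 and 5.90% in control replicates 3, 4 and 6. The means were 7.35% ± 0.561 in fasted and 5.85% ± 0.245 in control liver (SD, n = 3 each). Their difference was 1.50 percentage points, or 1.29 without fasted replicate 3. The 95% Wilson intervals, which cover counting error only, reached at most 0.0611 percentage points to either side, far less than the spread between libraries.

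After TMM scaling, which sets libraries to a common level by the bulk of their rows, the summed CPM (a row's counts relative to the scaled total of its library) was 47335, 84342 and 55524 in fasted and 68794, 66954 and 77376 in control libraries. Here the groups overlapped, with fasted replicate 4 the highest and fasted replicate 3 the lowest of all 6. As a share of the mappable reads, the family took 1.17, 3.62 and 2.35% in fasted and 2.73, 3.15 and 3.59% in control libraries, again with overlap and with the lower mean in fasted liver.

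**Figure D1:**
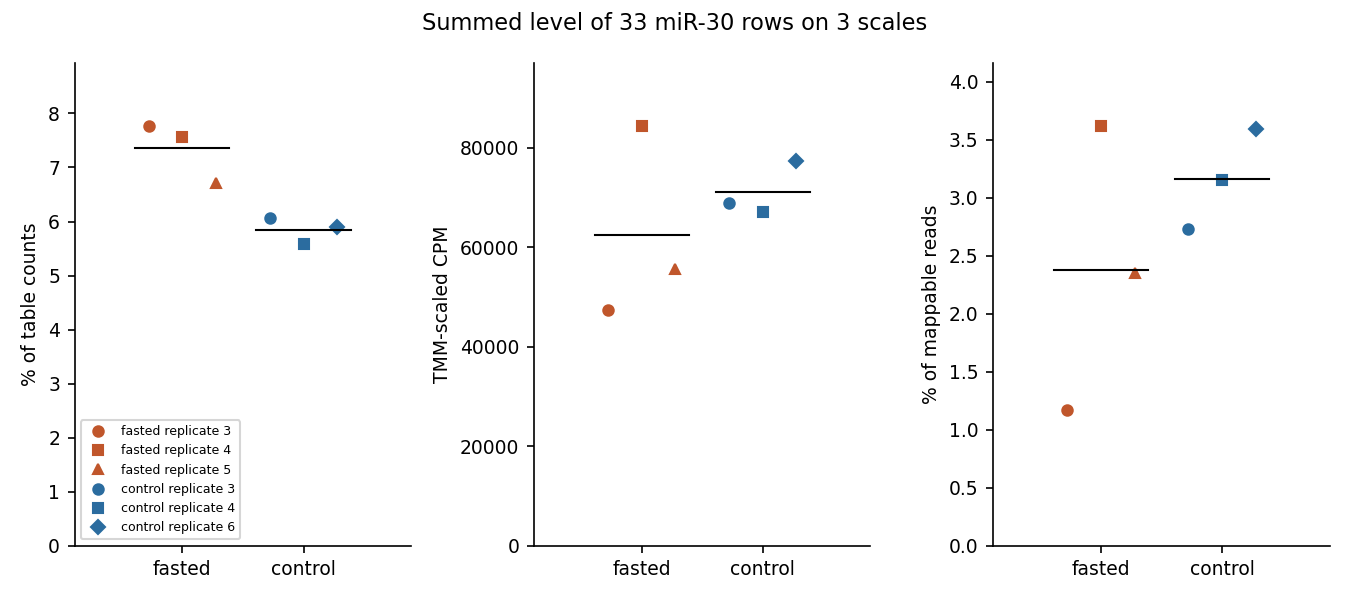
Summed level of the 33 miR-30 rows in each library as percent of the table's counts (left), as TMM-scaled CPM (middle) and as percent of mappable reads (right), with fasted libraries in orange, control libraries in blue and group means as lines. The 3 fasted libraries lie above the 3 control libraries on the left only, and fasted replicate 3 is the lowest library in the middle and on the right.

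Of the 33 members, 9 had enough counts to test. In edgeR's quasi-likelihood test of fasted against control liver, 0 of the 9 were called (Benjamini-Hochberg adjusted p under 0.05 over all 309 rows tested). Over all rows the called share was 0.0%. Before adjustment 0 of the 9 members had p under 0.05 in edgeR, against 8.41% of all rows. DESeq2 called 0 of the 9, and 4 of all 309 rows. The fitted log2 fold change was above 0 in 5 members and below 0 in 4. Their median was 0.014, and that of all 309 rows was 0.012. The 95% intervals of the members, which are not adjusted, reached 0.66 to 0.97 to either side on the log2 scale. At this spread, a change smaller than the reach of its own row's interval would not give p under 0.05 in edgeR even before adjustment. A call after adjustment over the 309 rows needed a larger change still.

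The dominant member, dre-miR-30e-5p_R-2, is among the most abundant miRNAs of the table, at rank 4 by mean share. It had 21536, 36307 and 30838 CPM in fasted replicates 3, 4 and 5, against 37858, 39422 and 43426 CPM in control replicates 3, 4 and 6. Every fasted library lay below every control library, and the fasted libraries were more spread than the control libraries. The means were 29560 ± 7468 CPM in fasted and 40235 ± 2872 CPM in control liver (SD, n = 3 each). The log2 fold change was -0.44 (SE 0.30; 95% interval -1.12 to 0.23; edgeR adjusted p = 0.612), which did not pass the test. Without fasted replicate 3 it was -0.20. When only the library total was used for scaling the value was 0.082 (SE 0.19), since its share of the table was 3.51% ± 0.235 in fasted and 3.31% ± 0.0260 in control liver. The lower position thus holds relative to the bulk of the rows and not as a share of the table.

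The row ssa-miR-30b-5p_R-4, the next member by abundance, at rank 7 in the table, had 16997, 35854 and 16845 CPM in fasted and 23579, 19856 and 25594 CPM in control libraries. Fasted replicate 4 stood above all the others and fasted replicates 3 and 5 below all controls, so the groups overlapped. Its log2 fold change was 0.014 (SE 0.37; edgeR adjusted p = 0.991). Without fasted replicate 4 it was -0.46, and without fasted replicate 5 it was 0.36, so the sign of this value depended on single libraries.

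The pair with cctacactc in the middle was about an order of magnitude less abundant. The row ssa-miR-30a-5p had 3359, 5710 and 3022 CPM in fasted and 2756, 2812 and 3809 CPM in control libraries. Its groups overlapped through control replicate 6, and the log2 fold change was 0.37 (SE 0.36; edgeR adjusted p = 0.724). For ssa-miR-30e-5p the values were 3046, 3951 and 2674 CPM in fasted and 2432, 2822 and 2345 CPM in control libraries, with 0.35 as the log2 fold change (SE 0.31; edgeR adjusted p = 0.724). Only fasted replicate 5 lay within the control range here. Both rows had a positive value with each of the 5 scalings run, and neither passed the test with any of them. Their size rested on single libraries: ssa-miR-30a-5p had 0.014 without fasted replicate 4 and 0.69 without fasted replicate 5, and ssa-miR-30e-5p had 0.16 and 0.62.

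The row dre-miR-30e-3p, by name the 3p arm of dre-miR-30e, varied least among the abundant members in TMM-scaled CPM. It had 2248, 2346 and 1986 CPM in fasted and 2015, 1894 and 2053 CPM in control libraries, or 0.14 as a log2 fold change (SE 0.29; edgeR adjusted p = 0.914). Its groups overlapped, with fasted replicate 5 inside the control range. As a share of the table it was not steady, with 0.273% ± 0.0841 in fasted and 0.164% ± 0.0119 in control liver (SD, n = 3 each). Scaled by library total alone, its log2 fold change was 0.74 (SE 0.35). Which arm of dre-miR-30e differed more between groups thus depended on the scaling.

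The 4 remaining tested members averaged between 6.17 and 62.2 CPM in control liver. The long row ssa-miR-30c-5p_R+1_1ss24TC had 39.6, 56.7 and 63.9 CPM in fasted and 49.3, 63.4 and 73.9 CPM in control libraries (log2 fold change -0.22, SE 0.35). The 3p row ssa-miR-30b-3p_L-1 had 43.8, 42.8 and 42.3 CPM in fasted and 56.3, 42.7 and 30.4 CPM in control libraries (-0.0071, SE 0.35). In both rows the groups overlapped, and the fasted values of ssa-miR-30b-3p_L-1 were nearly equal while its control values were spread.

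Of the rows that begin 1 base earlier, dre-miR-30d_L+1R-2 had 15.7, 24.9 and 13.2 CPM in fasted and 18.1, 18.3 and 20.04 CPM in control libraries (log2 fold change -0.073, SE 0.39). The row dre-miR-30c-5p_L+1R+1 had 8.26, 13.2 and 9.02 CPM in fasted and 6.74, 4.88 and 6.89 CPM in control libraries. All 3 fasted values of the second row lay above all control values. Its log2 fold change was 0.67 (SE 0.42; edgeR adjusted p = 0.606), and it rested on 3.75 to 25.1 counts per library. Among the 9 tested members it was the only one above, and dre-miR-30e-5p_R-2 the only one below, with TMM-scaled groups that did not overlap. Over all tested rows each direction held 8.74%. The filter on low counts asked for a minimum level in as many libraries as a group holds. The row dre-miR-30c-5p_L+1R+1 reached it in the fasted libraries only, where it is high. Its place above the controls is therefore no support for a change, and counts of tested members that include it carry this limit.

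**Figure D2:**
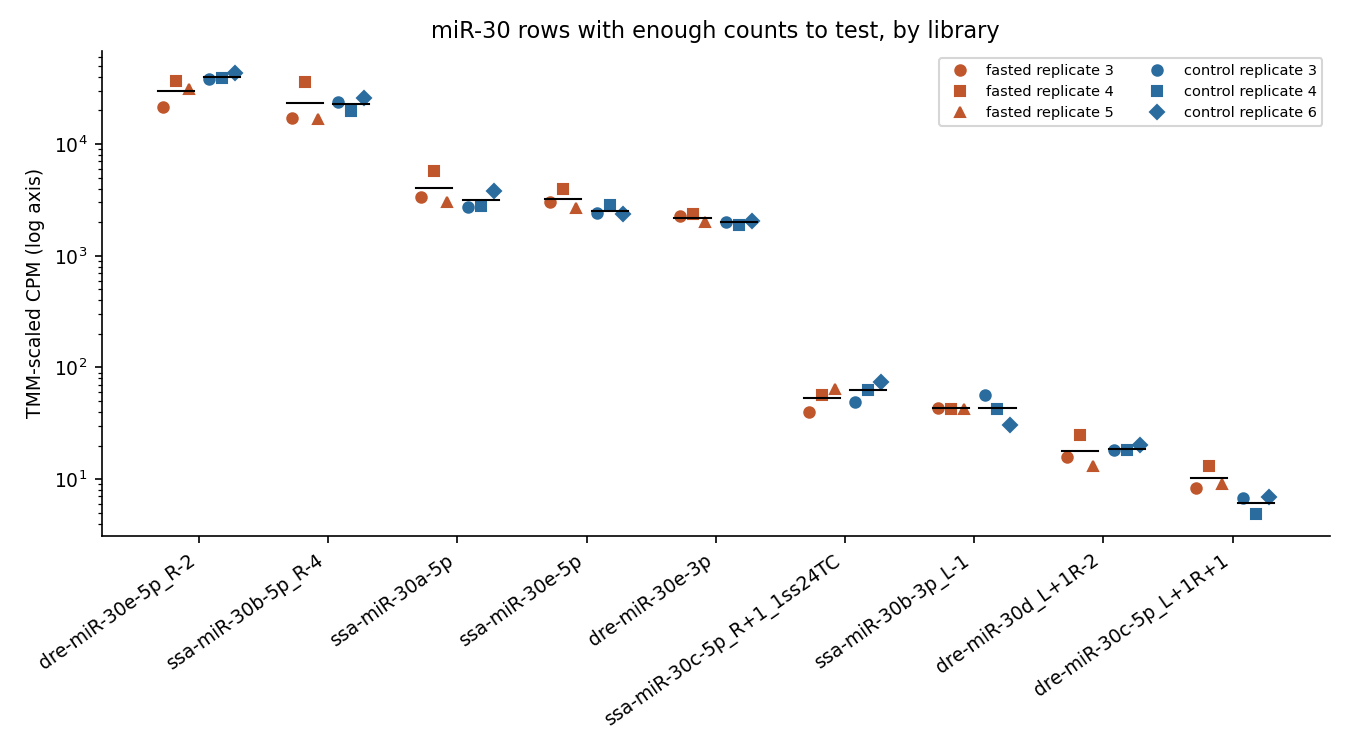
TMM-scaled CPM on a log axis for the 9 miR-30 rows with enough counts to test, with each library as a point, fasted libraries in orange to the left of control libraries in blue, and group means as lines. The 9 rows run from 40235 CPM in control liver for dre-miR-30e-5p_R-2 down to 6.17 CPM for dre-miR-30c-5p_L+1R+1, and fasted replicate 4 is the highest fasted library in 7 of them.

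The choice of scaling moved all 9 members together. Scaled by library total alone, all 9 values lay above 0, with a median of 0.57, but the median of all 309 rows was then 0.59. On that scale 3 members had an unadjusted p under 0.05 with edgeR, ssa-miR-30e-5p at 0.91 (SE 0.33), ssa-miR-30a-5p at 0.90 (SE 0.31) and dre-miR-30c-5p_L+1R+1 at 1.20 (SE 0.45), against 19.1% of all rows. None of the 3 passed the adjusted threshold, with a lowest edgeR adjusted p of 0.231, and the called share over all rows was 0.0%. Of these, dre-miR-30c-5p_L+1R+1 had passed the filter on low counts through its fasted libraries only. Shares of the table gave 5 members whose fasted libraries all lay above all control libraries, the same row among them, against 24.6% of all rows.

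**Figure D3:**
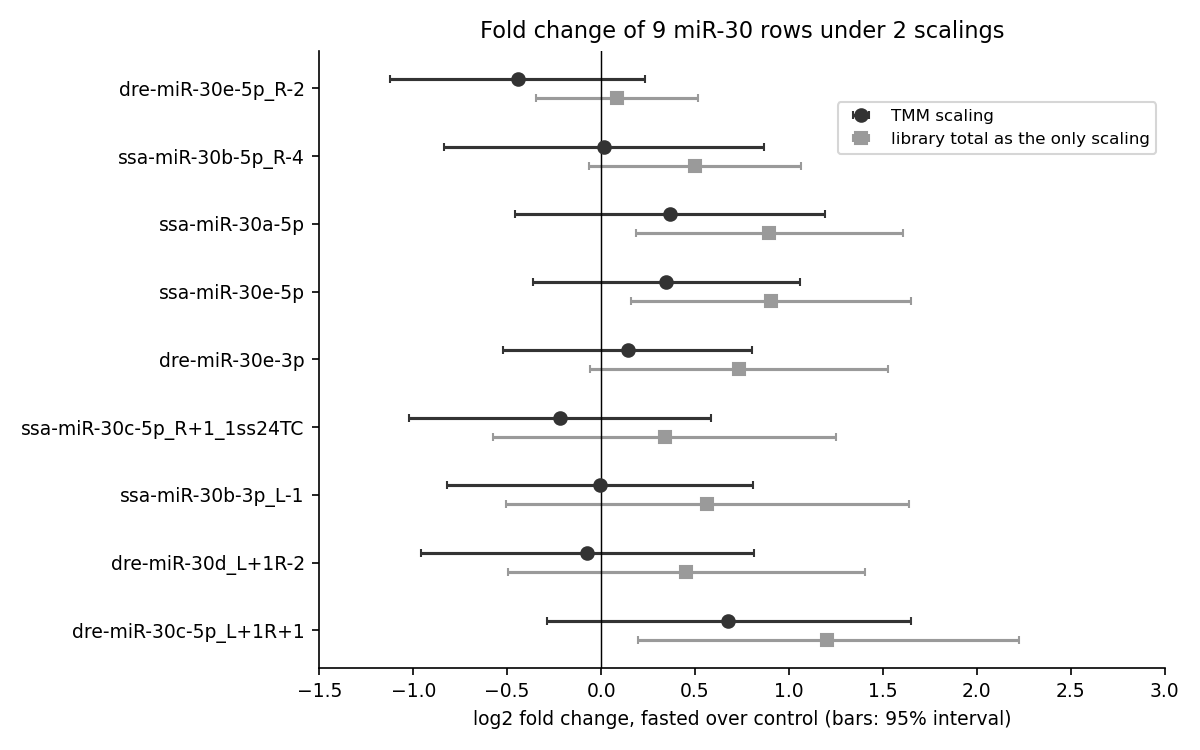
Log2 fold change of fasted over control liver for the 9 tested miR-30 rows, with TMM scaling (dark circles) and with library totals (grey squares); bars are 95% intervals from edgeR. All TMM intervals include 0, and the values with the library total lie to the right of them by about the shift of all rows, whose median was 0.59 against 0.012.

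The make-up of the family does not depend on scaling, because members of the same library are divided by each other. Relative to dre-miR-30e-5p_R-2, the row ssa-miR-30a-5p had 0.156, 0.157 and 0.0980 counts per count in fasted replicates 3, 4 and 5, against 0.0728, 0.0713 and 0.0877 in control replicates 3, 4 and 6. For ssa-miR-30e-5p these ratios were 0.141, 0.109 and 0.0867 in fasted and 0.0642, 0.0716 and 0.0540 in control libraries. In both, every fasted library lay above every control library. The means were 0.137 ± 0.0339 in fasted and 0.0773 ± 0.00907 in control liver for ssa-miR-30a-5p, and 0.112 ± 0.0275 and 0.0633 ± 0.00883 for ssa-miR-30e-5p (SD, n = 3 each).

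Between these rows the ratio overlapped between groups: ssa-miR-30a-5p had 1.103, 1.45 and 1.13 counts per count of ssa-miR-30e-5p in fasted and 1.13, 0.996 and 1.62 in control libraries. The ratio of ssa-miR-30b-5p_R-4 to dre-miR-30e-5p_R-2 overlapped too, with 0.789, 0.988 and 0.546 in fasted and 0.623, 0.504 and 0.589 in control libraries. Of the 8 other tested members, 4 had a ratio to dre-miR-30e-5p_R-2 that was higher in every fasted than in every control library and 0 had a lower one. Of all 308 other tested rows the same held for 21.4% in the higher and 1.62% in the lower direction, so a higher ratio to this row was found in many rows outside the family too. These 4 members share a divisor, and 2 of them share sequence, so they are not separate observations. Among them dre-miR-30c-5p_L+1R+1 had passed the filter on low counts through its fasted libraries only.

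**Figure D4:**
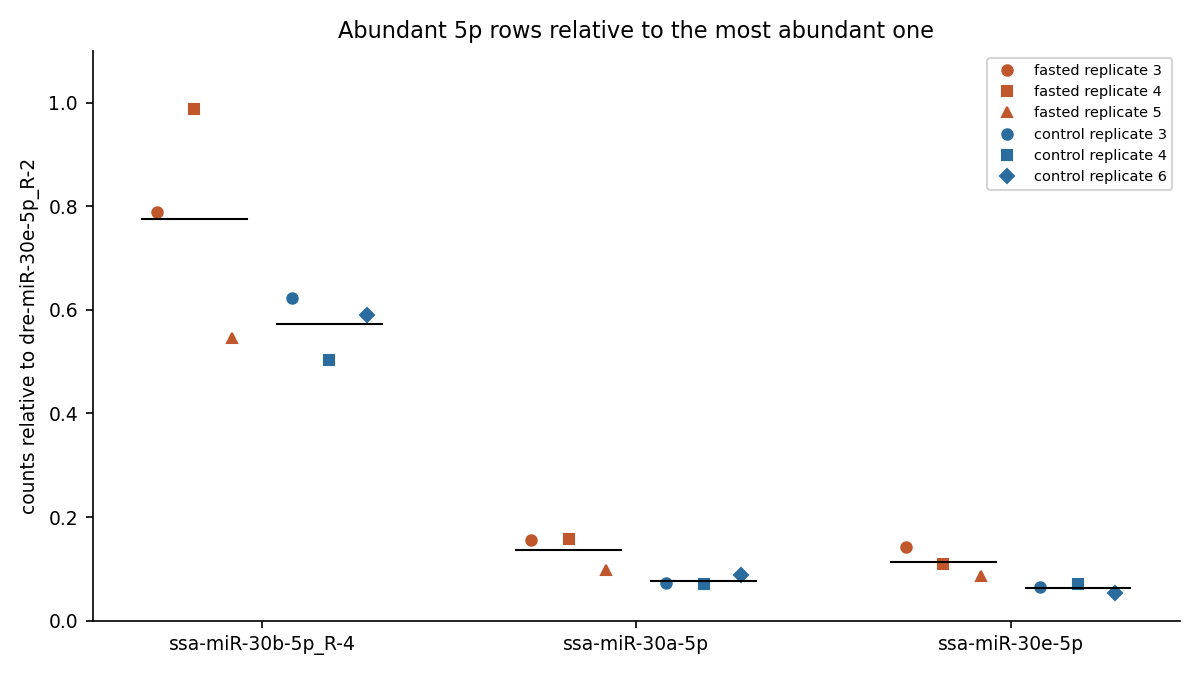
Counts of 3 abundant 5p rows divided by those of dre-miR-30e-5p_R-2 in the same library, with fasted libraries in orange to the left of control libraries in blue and group means as lines. For ssa-miR-30a-5p and ssa-miR-30e-5p the fasted points lie above the control points (means 0.137 against 0.0773, and 0.112 against 0.0633), while those of ssa-miR-30b-5p_R-4 overlap.

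By sequence, the dre-miR-30e-5p_R-2 type with its length variants made up 47.9, 44.4 and 57.8% of the family's 5p counts in fasted libraries, against 56.8, 60.7 and 57.8% in control libraries, with overlap. The ssa-miR-30b-5p_R-4 type made up 37.8, 43.8 and 31.5% in fasted and 35.4, 30.6 and 34.03% in control libraries, also with overlap. The type of ssa-miR-30a-5p made up 6.72% ± 0.943 in fasted and 4.51% ± 0.490 in control liver, and that of ssa-miR-30e-5p 5.54% ± 1.08 and 3.70% ± 0.617 (SD, n = 3 each). Fasted replicate 5 was the fasted library closest to the controls for 3 of the 4 types, and for the ssa-miR-30e-5p type fasted replicate 4 was.

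Rows with extra bases at the start took a slightly larger part of the 5p counts in fasted liver. They held 0.0849, 0.0601 and 0.0513% of the 5p counts in fasted and 0.0439, 0.0431 and 0.0395% in control libraries, without overlap. Within the ssa-miR-30a-5p type they held 0.398, 0.256 and 0.315% in fasted and 0.245, 0.162 and 0.195% in control libraries. Within the ssa-miR-30e-5p type they held 0.243, 0.216 and 0.149% in fasted and 0.105, 0.140 and 0.0634% in control libraries, also without overlap. Within the ssa-miR-30b-5p_R-4 type they held 0.0971, 0.0726 and 0.0823% in fasted and 0.0845, 0.0920 and 0.0801% in control libraries, so the groups overlapped there. The dre-miR-30e-5p_R-2 type had only 0 to 1 such counts per library in rows named miR-30. The predicted row PC-5p-29420_14, which the naming rule left out, holds its sequence behind 4 extra bases, with 2 to 15 counts per library. Such rows outside the naming rule are not part of these shares. Because the types differ in this share, the pooled value also moves with the mix of types, and the parts were not separated. All family rows with extra bases together had 23 to 109 counts per library, and these shares were not tested. The nearest libraries of the pooled share, fasted replicate 5 and control replicate 3, had 39.5 and 109 such counts. No counting interval was computed for these shares. The same shares were not taken for other families, so how often groups separate in this way elsewhere is not known.

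The 3p rows together made up 4.90, 2.86 and 3.70% of the family's counts in fasted and 3.04, 2.91 and 2.71% in control libraries, with fasted replicate 4 inside the control range. The 5p arm outweighed the 3p arm in each of the 3 miR-30 hairpins with at least 10 CPM on average in each arm. A hairpin here means rows of 1 prefix and letter paired by name, and whether they come from 1 precursor was not analysed. For ssa-miR-30a the 3p rows differ in sequence. The dre-miR-30e-3p sequence is also held by ola-miR-30a-3p_L+4R+3. Under the letter d it is held by ccr-mir-30d-p3_2ss9TC20TA, a row that the naming rule left out. For dre-miR-30e the 5p arm had 9.58, 15.5 and 15.5 times the CPM of the 3p arm in fasted replicates 3, 4 and 5, against 18.8, 20.8 and 21.1 times in control replicates 3, 4 and 6. All fasted ratios lay below all control ratios, with fasted replicate 3 the lowest. Without that library the difference below was -0.38. The log2 ratio averaged 3.72 ± 0.401 in fasted and 4.34 ± 0.0927 in control liver (SD, n = 3 each), a difference of -0.61 (SE 0.49; limma adjusted p = 0.542 over 32 hairpins). An exact two-sided permutation test gave p = 0.1 for this hairpin, the smallest that a 3 against 3 comparison allows. Groups without overlap always give this value, so it adds nothing to the order above. The same permutation test gave p = 0.5 for ssa-miR-30a and p = 0.6 for ssa-miR-30b. The row dre-miR-30e-3p was also 1 of the 4 members with a higher ratio to dre-miR-30e-5p_R-2 in every fasted library. These rows make up nearly all of the arms compared here, so the arm ratio is not a separate observation.

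Neither of the other hairpins separated the groups. For ssa-miR-30a, with its 3p rows summed, the 5p arm had 156, 367 and 242 times the 3p arm in fasted and 243, 329 and 405 times in control libraries (difference in log2 ratio -0.36, or -0.057 without fasted replicate 3 and -0.66 without fasted replicate 4; limma adjusted p = 0.745). For ssa-miR-30b it had 388, 839 and 398 times in fasted and 418, 465 and 843 times in control libraries (difference -0.11; limma adjusted p = 0.903). Their 3p arms averaged 16.5 ± 4.57 and 43.0 ± 0.739 CPM in fasted and 9.75 ± 1.43 and 43.1 ± 13.0 CPM in control liver (SD, n = 3 each). Of the 3 miR-30 hairpins 0 were called, against 6.25% of all hairpins, and 0 had an unadjusted limma p under 0.05, against 21.9%. Groups without overlap in the lower direction were found in 1 of the 3 and in 12.5% of all hairpins, and in the higher direction in 0 of the 3 and in 9.38%. The limma fit used the same spread for every hairpin, which was wider than that of dre-miR-30e itself.

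**Figure D5:**
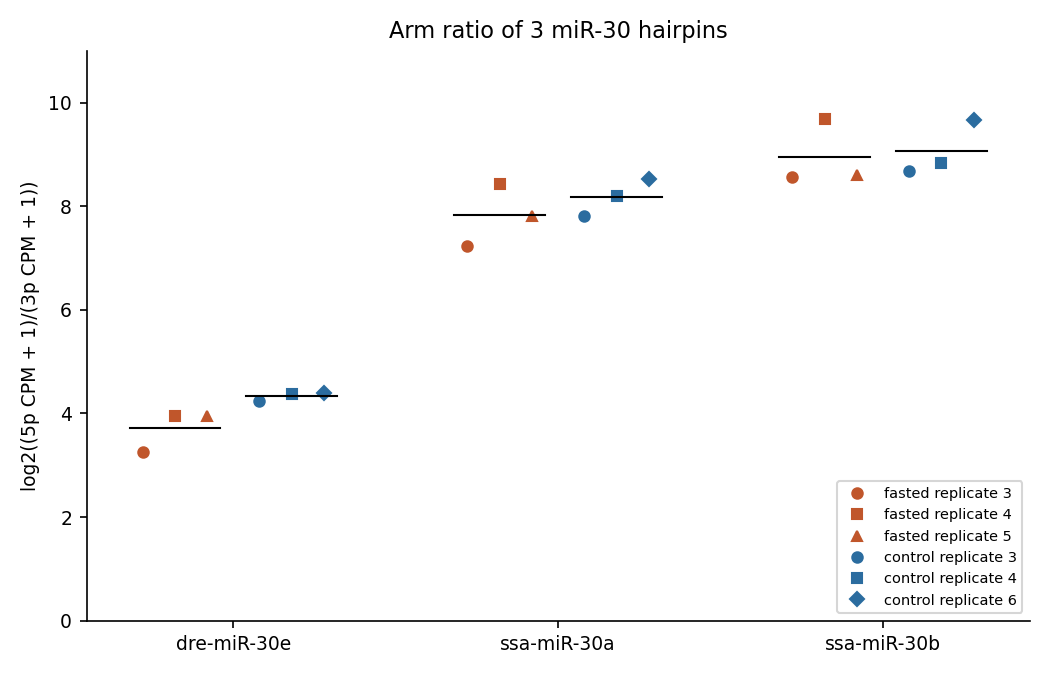
Log2 of the 5p over the 3p arm, log2((5p CPM + 1)/(3p CPM + 1)), for the 3 miR-30 hairpins in each library, with fasted libraries in orange to the left of control libraries in blue and group means as lines. The 3 fasted points of dre-miR-30e lie below its 3 control points (means 3.72 and 4.34), and the points of the other hairpins overlap.

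The 24 members with too few counts to test held 0.5 to 60.5 counts each over the 6 libraries, 306 in all. The highest were 3p rows, of which the first pair differ near the end.
ssa-miR-30a-3-3p: cTGGGAGAggggtgtttacact
ssa-miR-30a-4-3p: cTGGGAGAggggtgtttacgct
ssa-miR-30d-2-3p_L-1_1ss22CT: tTTCAGTCggatgtttgcagtt

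The row ssa-miR-30a-3-3p had 6.61, 3.89 and 4.16 CPM in fasted and 6.47, 4.88 and 3.76 CPM in control libraries. For ssa-miR-30a-4-3p the values were 8.26, 8.55 and 5.55 CPM in fasted and 2.16, 2.44 and 3.76 CPM in control libraries, from 8.5 to 11 and from 2 to 11.5 counts. Its fasted libraries lay above its control libraries, which the near-identical ssa-miR-30a-3-3p did not show. The row ssa-miR-30d-2-3p_L-1_1ss22CT had 3.30, 2.33 and 4.86 CPM in fasted and 2.97, 2.44 and 2.82 CPM in control libraries, with overlap. The other 21 untested rows had at most 32.5 counts each.

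With counts rounded to whole numbers, the fasted libraries lay above all control libraries on this scale in 5 of the 24 untested members. They lay below them in 0. Among all 1118 rows with too few counts to test, 2.33% lay above and 2.86% below. Of the 9 such members with at least 10 counts, 5 lay above and 0 below, against 5.75% in each direction among 313 rows. Beside ssa-miR-30a-4-3p these were ssa-miR-30a-3p, dre-miR-30b_L+1, fru-miR-30b_L+4 and dre-miR-30c-3p_R+1, named after their values were seen. Of these, dre-miR-30b_L+1 separated only through the rounding. Its fasted replicate 5 had 3.75 counts (2.78 CPM after rounding) and its control replicate 4 had 2.25 counts (2.44 CPM). On the deposited counts the order of these libraries is reversed, so its groups overlap. The rows named beside ssa-miR-30a-4-3p rested on 0 to 10 counts per library and were not tested. Here 3 counts correspond to 0.809 to 3.66 TMM-scaled CPM. The rows named miR-30b carry the ssa-miR-30e-5p sequence, and ssa-miR-30a-3p and dre-miR-30c-3p_R+1 share theirs but for an added last base, so they are not separate observations.

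Of 121 known miRNA rows outside the family with a mean of at least 100 CPM, the one whose profile over the 6 libraries lay closest to that of dre-miR-30e-5p_R-2 was dre-miR-122_R-1, the hepatocyte miRNA, at a root mean square distance of 0.122 in centred log2 CPM. Next came fru-miR-103 at 0.149 and dre-miR-27b-3p_R-1 at 0.155, against a median of 0.550 over the 121 rows. Among the other tested members the closest was ssa-miR-30c-5p_R+1_1ss24TC, the long form of the same sequence, at 0.206. The row ssa-miR-30b-5p_R-4 lay at 0.333, ssa-miR-30e-5p at 0.468 and ssa-miR-30a-5p at 0.469, so that 20, 41 and 42 rows outside the family were closer than these. All distances share the same 6 libraries and their scaling.

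Among other miRNAs known for the processes named above, edgeR called 0 rows, as over the whole table. The lipid and cholesterol list (among others miR-122, miR-33, miR-27, miR-34, miR-143 and miR-148) had 13 of its 30 tested rows above 0 and 17 below; the median of these log2 values was -0.18. Its most abundant rows were dre-miR-122_R-1 at -0.50 (SE 0.27; edgeR adjusted p = 0.606) and dre-miR-148 at -1.04 (SE 0.54; edgeR adjusted p = 0.606). The autophagy list (miR-101, miR-376, miR-204, miR-17, miR-20, miR-106, miR-93, miR-181 and miR-199) had 14 of 26 tested rows above 0 and 12 below, with a median of 0.057. In edgeR 3 rows of the first list and 2 of the second had p under 0.05 before adjustment, against the 8.41% of all rows. In it dre-miR-199-5p had -0.70 (SE 0.45; edgeR adjusted p = 0.606) and dre-miR-181a-5p had 0.75 (SE 0.30; edgeR adjusted p = 0.519).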

How the data were processed

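Per the labels' protocols, RNA came from liquid nitrogen-frozen livers by Trizol extraction, and an Illumina TruSeq kit made the libraries. The series' design text names an Illumina GAIIx. The submitters' processing notes name Bowtie 1.1.1; trimmer, counting program, miRNA reference and build have no source here. Per the file headers, the deposited read summary holds read counts of each library. In the miRNA table the deposited raw values are expected counts, and the normalized signal is the authors' expected count divided by a library size parameter of 0.506 to 2.30.

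After rounding, expected counts were tested by edgeR 4.0.16 (R 4.3.3; quasi-likelihood test, TMM, filterByExpr at a minimum count of 10 and total of 15), which kept 309 rows; TMM factors ran from 0.762 to 1.64. Calls needed a Benjamini-Hochberg adjusted p under 0.05. Arm ratios of 32 hairpins (rows of 1 prefix and letter summed) were tested with limma 3.58.1 at a pseudocount of 1 CPM. DESeq2 1.42.0 was an alternative, and scipy 1.17.1 gave the exact test. Scripts were tested on simulated data, with less spread than the common value fitted here and with changes larger than those of the members. That test does not show what size of change could be found at the spread of these libraries. No 2 libraries of a group were duplicates (chi-square per degree of freedom at least 150.2). All tested members were named, with the 3 untested ones of highest count, the 3 nearest other profiles and the 2 most abundant rows of the lipid and autophagy lists. Members and lists were chosen with earlier results of these data known.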

Additional observations from a re-analysis of the deposited data

How the results depend on the processing

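The number of miR-30 rows called by edgeR, limma or DESeq2 was 0 under each alternative run, and so was that of miR-30 hairpins. Of all rows, 11 were called without a filter on low counts, 4 by DESeq2, and 0 to 1 when 1 library was left out (1 without control replicate 3). The median log2 fold change of the tested members, 0.014 with TMM, was 0.14 with upper quartile factors, 0.57 with the library total, -0.20 with mappable reads, 0.28 without a filter (29 members) and 0.19 with a replicate block; leaving out 1 library gave -0.016 (without fasted replicate 4) to 0.36 (without fasted replicate 5). The median of all rows was 0.12, 0.59 and -0.27 with the first 3 of these settings, but -0.23 without a filter, -0.097 with the block and 0.077 without fasted replicate 5, where the members' median did not follow it. The difference in family share, 1.50 percentage points, was -0.78 with mappable reads as the denominator and 2.62 without the most abundant row, dre-miR-122_R-1, in the table sum; leaving out 1 library gave 1.29 to 1.82. With mappable reads, ssa-miR-30b-5p_R-4 turned to -0.20 and dre-miR-30e-3p to -0.14. With library totals, dre-miR-30e-5p_R-2 turned to 0.082, ssa-miR-30c-5p_R+1_1ss24TC to 0.34, ssa-miR-30b-3p_L-1 to 0.57 and dre-miR-30d_L+1R-2 to 0.45. Members near 0 turned more often: ssa-miR-30b-5p_R-4 was -0.066 without a filter and -0.033 with limma on the authors' normalized values, and -0.46 to 0.36 when 1 library was left out. The row ssa-miR-30b-3p_L-1 was 0.043 with DESeq2 size factors, 0.042 with DESeq2, 0.10 with upper quartiles, 0.081 with limma, 0.056 on known rows only, 0.13 summed by mature name, and -0.20 to 0.24 when 1 library was left out. The row dre-miR-30d_L+1R-2 was 0.054 with upper quartiles, 0.10 with the block and 0.042 summed by mature name. When 1 library was left out it was -0.40 to 0.26. When 5p rows were summed by shared sequence (chosen after seeing the data), the sum that holds it was 0.011. In that sum ssa-miR-30b-5p_R-4 held 276455 of 276683 counts, so 0.011 is not a value of dre-miR-30d_L+1R-2 itself. Summing by mature name joins different sequences of 1 letter. The sum that holds ssa-miR-30e-5p also holds the more abundant dre-miR-30e-5p_R-2 and was -0.29. The sum that holds ssa-miR-30c-5p_R+1_1ss24TC also holds dre-miR-30c-5p_L+1R+1 and was 4.3e-04. The arm ratio of ssa-miR-30b was 0.37 with the block and -0.48 to 0.19 when 1 library was left out. The causes of these changes were not tested.

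Replicate numbers 3 and 4 are found in fasted and control libraries alike, with no label that ties same-numbered libraries to one tank, day or batch. Deviations from the group means correlated at 0.44 for number 3 and -0.035 for number 4 across 309 rows. Between unlike numbers they correlated at -0.13 (fasted 3 with control 4) and -0.49 (fasted 4 with control 3). Deviations within a group cancel, so these values depend on each other. With the replicate block, edgeR gave an unadjusted p under 0.05 in 59 rows, against 26 without it, and called 0. The other replicate numbers occur in a single group each. Every fasted against control value with the block therefore rests on the libraries numbered 3 and 4 only. Depth limits the rows under 10 CPM most, since 3 counts correspond to 0.809 to 3.66 TMM-scaled CPM, with the highest value in control replicate 4.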

Other observations

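The table also holds 8 rows named mir-30 in lower case with p3 or p5, 212 counts in all, which the naming rule left out. Of these, only ssa-mir-30e-1-p3 had enough counts to test. It had 10.7, 10.1 and 11.1 CPM in fasted and 28.04, 13.4 and 10.6 CPM in control libraries (log2 fold change -0.73, SE 0.47; edgeR adjusted p = 0.606), and its sequence, gTGAGTTGgcagcagagg with bases 2 to 8 in capitals, holds neither GTAAACA nor the start of the 3p rows above. Outside the family, 3 rows held the shared start of the 4 main 5p rows behind extra bases: ola-mir-30d-p5_1ss1GC with 5 counts, 1 of these 8, and the predicted rows PC-5p-55543_5 with 5 and PC-5p-29420_14 with 32 counts over the 6 libraries. The last, gTGGTGTAaacatccttgactgga, holds the dre-miR-30e-5p_R-2 sequence behind 4 extra bases and had 3, 6 and 2 counts in fasted and 4, 2 and 15 counts in control libraries.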
